A study of Mus musculus with 12 samples.

Results

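Muscle of mice infused with 20-hydroxyecdysone (20E) for 15 days was set against muscle of mice infused with it for 5 days. The comparison took 6 of the 12 arrays of the study, 3 per duration, and all arrays titled as 20E at either duration entered. The animals were male C57BL/6J mice, all labelled as 12 weeks old, and both groups received 5 mg/kg/day from pumps implanted under the skin. The RNA came from the triceps brachii, and each array held a pool of equal RNA from 3 animals, so that the spread between arrays is a spread between pools. Saline mice of the same strain, age and durations, 3 pools at each, served as the background for duration. At 1 of the saline pools only 2 animals were combined. The sources used here do not say whether the 12 weeks refer to the start or the end of an infusion, nor at which hour muscle was taken.

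20E is a steroid hormone that triggers moulting in insects and is also found in plants. Insects sense it with a nuclear receptor, the ecdysone receptor, that is not found in mammals, and the steroid has been studied in rodents for effects on muscle growth and metabolism. Skeletal muscle carries its own circadian clock, in which CLOCK and ARNTL drive genes through E-box elements and the PER, CRY and NR1D proteins feed back on them.

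The measurement was the bead signal of an Illumina whole-genome mouse array with 45281 probes. A probe entered if its detection p was under 0.05 on at least 3 of the 6 arrays, which left 18062 probes (39.9%). Of these, 15481 carried 1 gene symbol, for 9942 distinct symbols, and 15333 were detected on all 6 arrays. Arrays of 5 days detected 18160, 18414 and 18580 probes and arrays of 15 days 17467, 17606 and 18265. The means, 18385 and 17779, gave p = 0.2 in a two-sided exact permutation test, in which 3 arrays against 3 cannot go below 0.1. The label was checked against muscle markers: all 13 named muscle fibre genes of the marker list were detected on all 6 arrays. Levels below are background-corrected, quantile-normalized log2 signals, and a difference is the mean at 15 days minus the mean at 5 days.

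No probe passed the test between the durations. In limma, with 1 mean per group fitted to all 12 arrays, 0 of 18062 probes had a Benjamini-Hochberg adjusted p under 0.05 (0%), and the lowest adjusted p was 0.0784. An unadjusted p under 0.05 was reached by 1559 probes (8.63%), of which 922 (5.1%) were higher and 637 (3.53%) lower at 15 days. This split depended on the scaling: when arrays were aligned on their medians, the median difference over all tested probes was -0.12, and 253 were higher against 1909 lower. The levels of the 2 groups did not overlap at 2808 probes (15.5%), with 1487 (8.23%) higher and 1321 (7.31%) lower. For 96% of the probes the 95% interval of the difference excluded a 2-fold change, and for 76.3% it excluded a 1.5-fold change. An offset of 16 was added to the signals before the logarithm. It shrinks fold differences at dim probes, so the exclusions hold for this scale only. Pools of 1 duration differed from each other by a root-mean-square log2 difference of 0.348 (median of 6 pairs, 0.273 to 0.402), and pools of different durations by 0.362 (median of 9 pairs, 0.264 to 0.48).

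In saline muscle, tested on the same probes, 0 of 18062 probes were called between 15 and 5 days (0%), the smallest adjusted p being 0.052, while 1385 (7.67%) reached an unadjusted p under 0.05. The test of whether the duration difference itself differed between 20E and saline also called 0 probes (0%). There the lowest adjusted p was 1, while 612 probes (3.39%) had an unadjusted p under 0.05.

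Ciart, a repressor in the circadian clock that acts on CLOCK and ARNTL, had the smallest p. Its promoter is shown with those of Per1, another clock gene, and Hspa1a, a heat shock gene, because both gene groups are described below. The windows run from 250 bases before to 50 bases after the RefSeq gene start on GRCm38.p6, and capitals mark the motif searched: the E-box CACGTG for Ciart (chr3:95882179-95882478, minus strand) and Per1 (chr11:69098699-69098998, plus strand), and the pair of heat shock units GAANNTTC for Hspa1a (chr17:34972107-34972406, minus strand). Both motifs equal their own reverse complement, so 1 search covers both strands.
Ciart: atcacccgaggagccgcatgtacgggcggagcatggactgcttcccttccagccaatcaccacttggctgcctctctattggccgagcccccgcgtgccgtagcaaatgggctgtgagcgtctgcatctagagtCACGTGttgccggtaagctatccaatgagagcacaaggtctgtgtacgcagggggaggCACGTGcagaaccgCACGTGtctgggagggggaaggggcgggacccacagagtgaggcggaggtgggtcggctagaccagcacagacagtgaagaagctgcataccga
Per1: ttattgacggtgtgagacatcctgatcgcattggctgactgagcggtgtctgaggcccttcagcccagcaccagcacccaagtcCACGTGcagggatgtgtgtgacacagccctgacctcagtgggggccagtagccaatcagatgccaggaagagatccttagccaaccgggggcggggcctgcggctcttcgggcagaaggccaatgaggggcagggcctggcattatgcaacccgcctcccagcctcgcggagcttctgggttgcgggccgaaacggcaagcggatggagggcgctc
Hspa1a: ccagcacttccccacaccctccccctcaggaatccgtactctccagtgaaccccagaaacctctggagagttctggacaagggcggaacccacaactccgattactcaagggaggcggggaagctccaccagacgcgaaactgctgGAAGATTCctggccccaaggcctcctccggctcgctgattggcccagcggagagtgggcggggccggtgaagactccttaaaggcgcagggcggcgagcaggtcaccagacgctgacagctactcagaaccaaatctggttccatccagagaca
The Ciart window held 3 copies of CACGTG and the Per1 window shown held 1; Per1 has 2 windows, and this is the one with a match. Of all 32851 promoter windows, 2349 (7.15%) held CACGTG and 2582 (7.86%) held GAANNTTC. Counted by gene, 8.09% of all genes held CACGTG in some window and 9.04% held GAANNTTC. Of 14 clock list genes, 5 held CACGTG and 0 held GAANNTTC, and of 10 heat shock genes 2 held CACGTG and 4 held GAANNTTC. These are matches of letters, and binding was not measured.

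At the first Ciart probe (ILMN_3029489) the 5 day pools stood at 7.49, 8.32 and 8.06 and the 15 day pools at 6.61, 6.55 and 6.55. Every 15 day pool lay below every 5 day pool, and the 15 day pools lay close together. The difference was -1.39 (SE 0.17), or 2.61-fold lower, with an adjusted p of 0.0784 in limma (range over the alternatives, 0.000516 to 0.771). The probe ILMN_3102736 had a difference of -1.26 (SE 0.2) and the probe ILMN_1236079 of -0.95 (SE 0.19), again without overlap of the groups. In saline muscle the same 3 probes had differences of -1, -1.34 and -1.01, so Ciart was lower at 15 days under both infusions, and no adjusted p under 0.05 was reached in either. The signal column headers number the arrays from 1 to 12, and the column codes do not say what this number stands for. Within arrays 1 to 6 of this numbering, where each duration has 1 array of 20E, the first probe differed by -0.94, and within arrays 7 to 12 by -1.61. Without 20E 5d replicate 1, this probe's lowest 5 day pool, the difference was -1.62 and the adjusted p in limma 0.000516, the lower end of the range above. Leaving out the 5 day pool nearest to the 15 day pools enlarges the difference by construction, so this value is no further support.

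The clock list held 22 tested probes of 14 genes. Of these, 5 were higher and 17 lower at 15 days (of all tested probes, 51% were higher), 1 and 7 of them at an unadjusted p under 0.05 (background 5.1% and 3.53%), and the median difference was -0.19 against 0 over all probes. The 3 Ciart probes described above, chosen for their small p, are among the 17 and among the 7. In saline the list's median was -0.23. Without 20E 5d replicate 3 and 20E 15d replicate 3, 9 were higher and 13 lower, with a median of -0.08. Arntl, the activator, stood at 6.53, 6.24 and 5.85 at 5 days and at 7.06, 6.63 and 6.94 at 15 days, a difference of 0.67 (SE 0.2). Its 15 day pools all lay above its 5 day pools, opposite to Ciart. Per1, a repressor that also responds to glucocorticoids, had a difference of -0.46 (SE 0.12), with 10.23, 10.16 and 9.88 at 5 days and 9.67, 9.6 and 9.62 at 15 days. Dbp, a clock-driven transcription factor, had a difference of -0.35 (SE 0.11). Their adjusted p in limma was 0.435 for Arntl, 0.416 for Per1 and 0.454 for Dbp. Clock, Per2, Tef and Nr1d2 probes had differences between -0.22 and 0.09. With array medians aligned, which left 25.7% of all tested probes higher, the list's median relative to all probes was -0.19, as before.

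**Figure D1:**
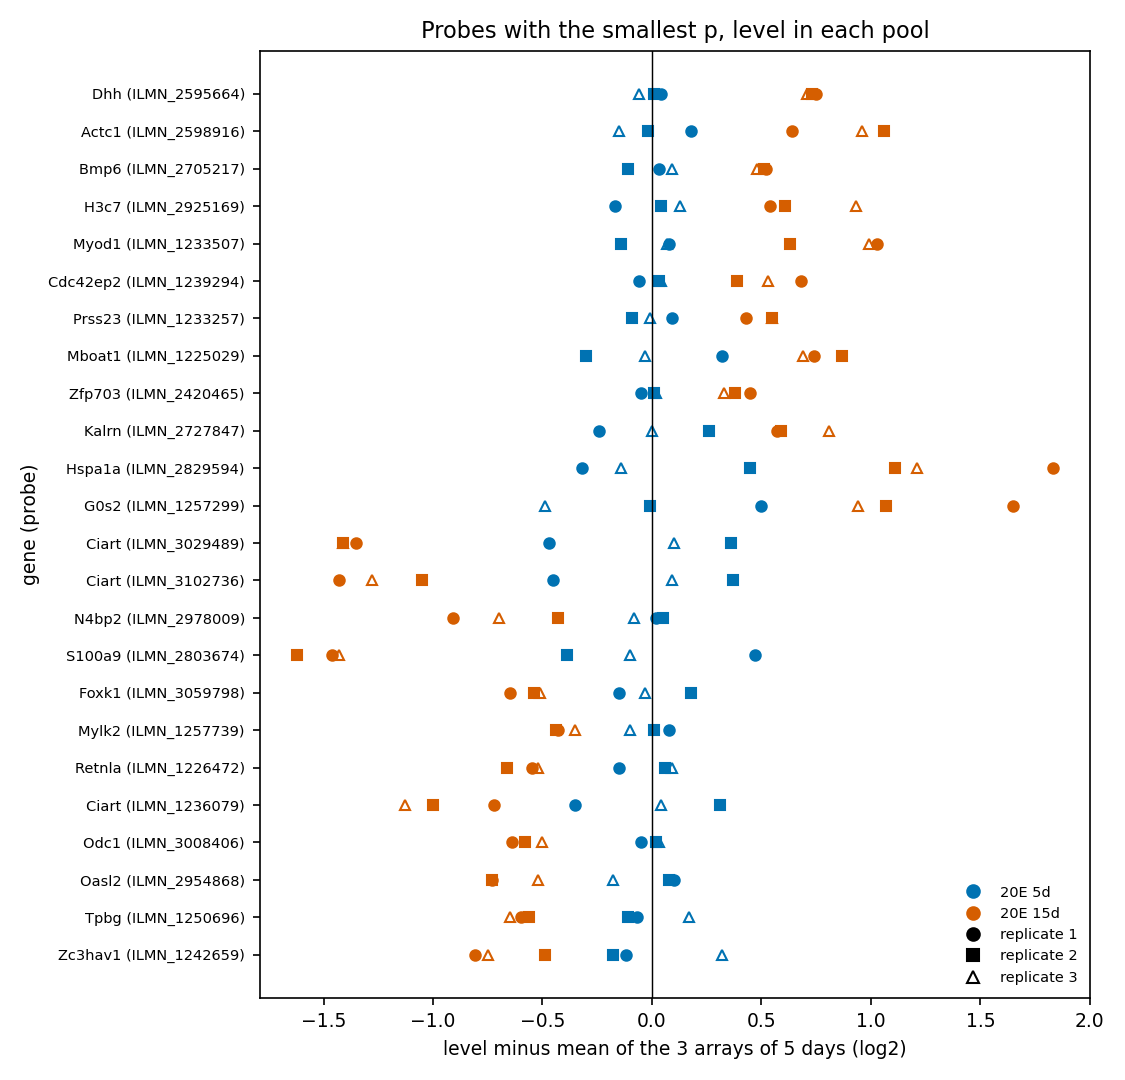
Level at each of 24 probes in each pool of 20E muscle, on the horizontal axis as log2 minus the mean of the 3 arrays of 5 days, with 1 row per probe; colours mark the duration and symbols the replicate. At each probe shown the 15 day pools lie on 1 side of the 5 day pools, and the 3 Ciart probes and S100a9 lie farthest to the left.

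Among probes with 1 gene symbol, the 12 with the smallest p of those higher at 15 days belonged to Dhh, Actc1, Bmp6, H3c7, Myod1, Cdc42ep2, Prss23, Mboat1, Zfp703, Kalrn, Hspa1a and G0s2. Actc1, the alpha-actin of heart and developing skeletal muscle, stood at 11.32, 11.12 and 10.99 at 5 days and at 11.78, 12.2 and 12.1 at 15 days. The difference was 0.88 (SE 0.13) with an adjusted p of 0.184 in limma (Actc1 in saline, 1.07, adjusted p 0.052). A second Actc1 probe gave 0.67 (SE 0.14), with a larger 1.2 (SE 0.14) in saline, there also at an adjusted p of 0.052. For this second probe the limma test of 20E against saline gave an unadjusted p of 0.0227, and that test called no probe. Myod1, the myogenic transcription factor, stood at 7.6, 7.38 and 7.59 and then at 8.55, 8.15 and 8.51. Its difference of 0.88 (SE 0.16) came with 0.78 in saline. G0s2, an inhibitor of the triglyceride lipase PNPLA2, had a difference of 1.22 (SE 0.25), with 9.85, 9.34 and 8.86 at 5 days and 11, 10.42 and 10.29 at 15 days, and 1.45 in saline. For these genes the 15 day pools lay above the 5 day pools under 20E, and the saline differences were of the same sign.

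Dhh, which encodes the secreted ligand Desert hedgehog, known from Schwann cells and endothelium, stood near background. Its 5 day pools were at 5.15, 5.12 and 5.05 and its 15 day pools at 5.86, 5.84 and 5.82, a difference of 0.73 (SE 0.11). The saline difference was 0.07 (SE 0.11), and the test of 20E against saline for this difference gave an unadjusted p of 0.00114 but an adjusted p of 1 in limma. Beside Dhh, the Schwann cell and nerve list had 4 of 5 probes higher and 1 lower, 2 of them higher at an unadjusted p under 0.05 (background 5.1%), with a summed level of 915.1 to 992.3 at 5 days and of 1016 to 1340 at 15 days, against 907.9 to 1055 and 897.8 to 1085 in saline. Sox10, the transcription factor of Schwann cells, stood at 5.06, 5.63 and 5.63 and then at 6.22, 6.51 and 6.2. At the probe ILMN_2737200 of Mbp, a myelin protein, the pools stood at 7.68, 7.83 and 7.83 and then at 8.27, 8.77 and 8.06. The differences were 0.87 (SE 0.2) for Sox10 and 0.59 (SE 0.16) for this Mbp probe, with 0.12 and -0.06 in saline. A second Mbp probe (ILMN_3011353) went the other way, with -0.82 (SE 0.42), and the part of nerve cells in the Dhh value was not tested. Bmp6, a signalling ligand of the TGF-beta family, had 0.5 (SE 0.09) at a level near background, with 0.11 in saline.

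Hspa1a, the inducible HSP70 chaperone, stood at 6.11, 6.88 and 6.29 at 5 days and at 8.26, 7.54 and 7.64 at 15 days. The difference was 1.39 (SE 0.29), 2.62-fold higher, with an adjusted p of 0.38 in limma and a difference of 1.36 in saline. Dnajb1, a co-chaperone of HSP70, had a difference of 0.83 (SE 0.17) and 0.89 in saline. Hspa1b had 0.61 (SE 0.17); Hspa1a and Hspa1b are near-identical copies, and a probe may read both. Ddit3, a transcription factor of the unfolded protein response, had 0.41 and 0.47 at its 2 probes. In the heat shock list, 10 of 14 probes were higher and 4 lower (of all tested probes, 51% were higher). Of these, 6 and 0 had an unadjusted p under 0.05 (background 5.1% and 3.53%). The list's median was 0.19, and 0.19 in saline. With array medians aligned, 7 were higher and 7 lower against 25.7% higher of all tested probes, and the list's median relative to all probes was 0.17, against 0.18 before.

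The other probes of this group had differences between 0.39 and 0.77. They belonged to H3c7 (a histone H3 gene), Cdc42ep2 (an effector of the GTPase CDC42), Prss23 (a serine protease), Mboat1 (a lysophospholipid acyltransferase), Zfp703 (a zinc finger protein) and Kalrn. Second probes of 3 of these genes had smaller differences, of 0.23 (SE 0.13) for H3c7, 0.23 (SE 0.14) for Prss23 and 0.14 (SE 0.14) for Zfp703, and the groups overlapped at those of H3c7 and Zfp703. All 12 of these probes stood higher at 15 days in saline muscle too, by 0.07 to 1.45.

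Among the 12 probes lower at 15 days, 3 were those of Ciart. S100a9, a subunit of calprotectin in neutrophils, was detected on 3 of 3 arrays at 5 days and 0 of 3 at 15 days. It stood at 6.49, 5.63 and 5.92 and then at 4.56, 4.4 and 4.59, which is at least 1.9-fold lower, since the 15 day value is a bound (adjusted p = 0.33 in limma). S100a8, its partner, stood at 7.47, 6.84 and 6.83 and then at 4.89, 4.65 and 5.53. Of the 7 neutrophil markers the other 5 (Camp, Ltf, Mmp8, Ngp and Retnlg) were detected on 0 of the 6 arrays. The summed level of the 2 tested probes was 164.2 to 266.9 at 5 days and 46.13 to 70.07 at 15 days. On 20E 15d replicates 1 and 2, 0 of the 2 probes were detected, and 1 was on replicate 3. The 15 day sums thus lie near the detection limit and give no measured size of the drop. In saline the sums were 79.54 to 242.8 at 5 days and 52.02 to 109.9 at 15 days, so those groups overlapped. In bulk muscle, fewer cells of a type and less RNA per cell cannot be told apart.

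Retnla, a secreted protein of alternatively activated macrophages and fat, stood at 8.8, 9.01 and 9.04 and then at 8.4, 8.29 and 8.43, a difference of -0.58 (SE 0.11) with 0.01 in saline. Zc3hav1, an antiviral zinc finger protein, had a difference of -0.69 (SE 0.15) with 0 in saline. Oasl2, an interferon-induced gene, had -0.66 (SE 0.14) with -0.32 in saline. In the interferon list, 2 of 12 probes were higher and 10 lower (of all tested probes, 51% were higher). Of these, 0 and 3 had an unadjusted p under 0.05 (background 5.1% and 3.53%). The list's median was -0.31, and -0.15 in saline. Of these 12 probes 7 were highest on 20E 5d replicate 1, whose median stood 0.39 above the 12-array median, against 0.13 on each of the other 5 day arrays. That array also had the highest adipocyte and neutrophil markers of the 6, and their part in the list's values was not tested. With array medians aligned, the interferon list had 0 probes higher and 12 lower, against 25.7% higher of all tested probes. Its median relative to all probes was then -0.32, against -0.31 before. Odc1, the rate-limiting enzyme of polyamine synthesis, stood at 12.71, 12.78 and 12.79 and then at 12.12, 12.18 and 12.26, a difference of -0.57 (SE 0.12). Mylk2, the myosin light chain kinase of skeletal muscle, had -0.4 (SE 0.08) at the probe ILMN_1257739 and -0.28 at each of its other 2 probes, at 1 of which the groups overlapped. N4bp2, a partner of the ubiquitin ligase NEDD4, Foxk1, a forkhead factor of muscle progenitors, and Tpbg, a membrane glycoprotein, had differences between -0.68 and -0.56. Tpbg was detected on 0 arrays at 15 days and was at least 1.15-fold lower.

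**Figure D2:**
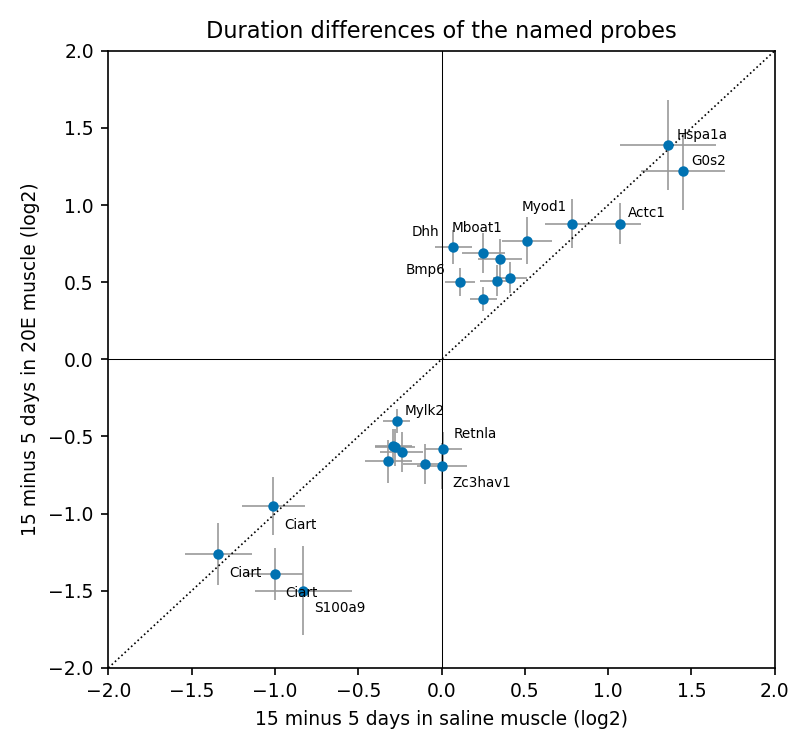
Duration difference (15 minus 5 days, log2) of 24 probes in saline muscle on the horizontal axis and in 20E muscle on the vertical axis; points are limma estimates, bars are 1 SE and the dotted line marks equality. Ciart, Hspa1a, G0s2, Actc1 and Myod1 lie near the line, while Dhh, Retnla and Zc3hav1 lie near 0 in saline.

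The probes in this plot were chosen by their p in 20E, so that a smaller difference in saline is partly fixed by the choice. Of all 27 named probes, 24 had the same sign in saline, and 6 had an unadjusted p under 0.05 in the test of 20E against saline (background 3.39%). All 27 had the same sign within arrays 1 to 6, within arrays 7 to 12 and without the arrays 20E 5d replicate 3 and 20E 15d replicate 3. The choice of probes by their small p largely fixes this. Across all 18062 probes the duration differences in 20E and saline had a Pearson correlation of 0.56, and without these 2 arrays of 0.19; all arrays were normalized together.

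Brightness set how small a difference could be seen. The tested probes were split into 5 classes of equal size by their mean level in 20E muscle, from 4.84 to 5.62 in the dimmest to 9.59 to 15.91 in the brightest. The median absolute difference was 0.158, 0.141, 0.117, 0.0975 and 0.0839 from the dimmest to the brightest class, and the median standard error was 0.186, 0.168, 0.133, 0.109 and 0.0961. In each class the typical difference was thus below its standard error, and both shrank with brightness. The share of probes with an unadjusted p under 0.05 was between 8.36% and 9.11% in every class, while the share that excluded a 1.5-fold change went from 52.3% in the dimmest class to 95% in the brightest. These exclusions hold on the scale with the offset, which shrinks fold differences most at dim probes. In the dimmest class 27.2% of the probes were detected on all 6 arrays, against 97.4% or more in the others.

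**Figure D3:**
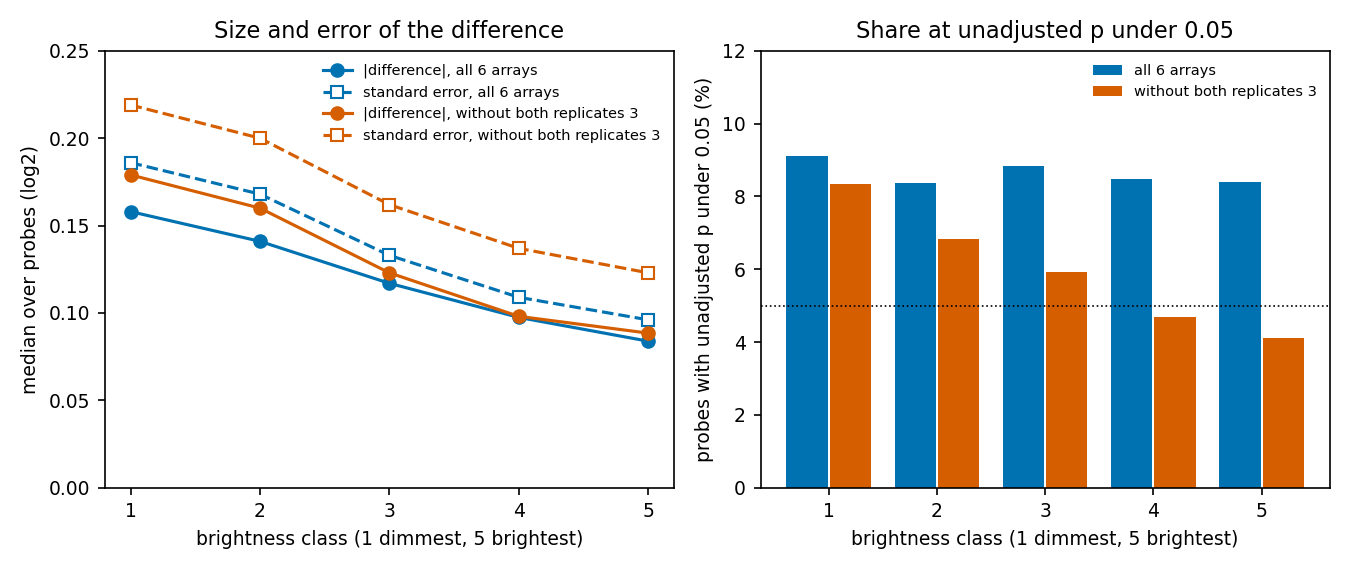
Left, median over probes of the absolute difference (filled symbols) and of its standard error (open symbols), in log2 units, by brightness class, for all 6 arrays and without 20E 5d replicate 3 and 20E 15d replicate 3; right, percentage of probes with an unadjusted p under 0.05, with a dotted line at 5%. Difference and error both shrink with brightness, and without the 2 arrays the share at the right goes from 8.33% in class 1 to 4.1% in class 5.

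Differences beyond 2-fold were 55 higher (0.305%) and 88 lower (0.487%), and most of them lay in the dimmer classes. From the dimmest class on there were 7, 23, 16, 6 and 3 higher and 16, 38, 18, 11 and 5 lower. A single array carried most of the higher ones: of these 55 probes, 53 had their highest level on 20E 15d replicate 3. Of the 88 lower probes 52 had it on 20E 5d replicate 3 and 34 on 20E 5d replicate 1. A probe lower at 15 days has its highest level on some 5 day array almost by construction. The groups did not overlap at 5 of the 55 and 68 of the 88 (of all tested probes, 8.23% and 7.31%), counts that the choice by size can raise. When both replicates numbered 3 were left out, 2 of the 55 and 41 of the 88 were still beyond 2-fold. Of the 55, 37 turned direction, and of the 88, 0 did. That fit called 0 probes (0%), the smallest adjusted p being 0.221, and had 6 higher (0.0332%) and 70 lower (0.388%) beyond 2-fold, of which 68 had their highest level on 20E 5d replicate 1.

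Probes with an unadjusted p under 0.05 were fewer without the 2 arrays, 1079 (5.97%) against 1559, and 693 were in both, which is 44.5% of the longer list and 64.2% of the shorter. The share by class then went down with brightness, as 8.33%, 6.84%, 5.92%, 4.68% and 4.1%, and the median absolute difference was 0.179, 0.16, 0.123, 0.0981 and 0.0885. The probe with the smallest p in this fit carried no single gene symbol; among those with 1 symbol, the 4 with the smallest p in each direction were those of Draxin (an axon guidance protein), Pmvk (phosphomevalonate kinase), Dhh and H3c7 among the higher, and of Ciart, Oasl2, Adh7 (an alcohol dehydrogenase) and Mylk2 among the lower. Their differences without the 2 arrays were 0.73, 0.59, 0.71, 0.64, -1.32, -0.82, -0.96 and -0.48. Draxin rested on the omission: with all arrays its difference was 0.28 (SE 0.22), as 20E 5d replicate 3 stood at 5.43 and its other 5 day pools at 4.57 and 4.55. Adh7 was detected on 3 arrays at 5 days and 0 at 15 days, and with all arrays was at least 1.16-fold lower.

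Liver transcripts made up 39 of the 55 probes that were beyond 2-fold higher. They come from a list of 40 genes of secreted liver proteins and enzymes, chosen after the values were seen, with 43 tested probes of 33 genes. All 43 were higher at 15 days, 0 of them at an unadjusted p under 0.05, with a median difference of 1.51, and the same 43 had their highest level on 20E 15d replicate 3. Hamp, the iron hormone hepcidin, stood at 6.52, 5.12 and 4.82 at 5 days and at 6.22, 6.19 and 11.09 at 15 days. Cyp2d9, a liver cytochrome P450, stood at 5.63, 5.18 and 4.6 and then at 5.55, 5.54 and 9.16. At both genes 1 pool of 15 days stood apart from the other 5 pools. The summed level of the list was 3047 to 12270 at 5 days and 6023 to 131110 at 15 days, and without the 2 arrays its median difference was -0.32. Saline 15d replicate 1 had the list as high, with a median of 4.31 above the 12-array median against 4.34 on 20E 15d replicate 3, and the saline difference had a median of 2.25. Alb, Fgb and Tat were detected on 0 of the 6 arrays of 20E.

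**Figure D4:**
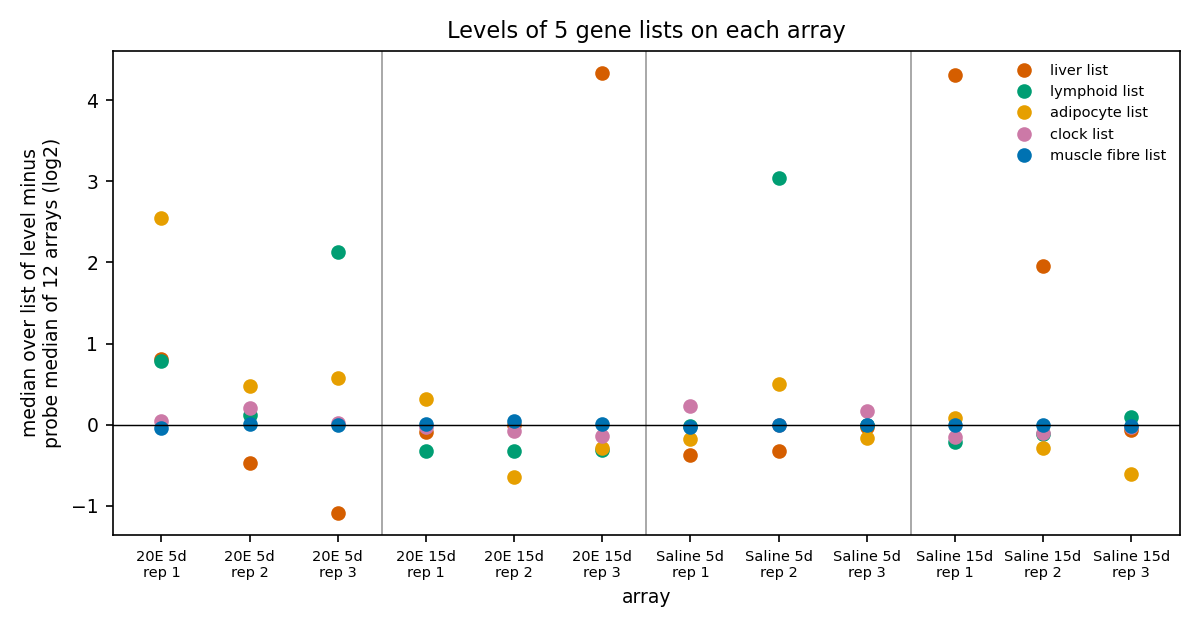
Median over the probes of each of 5 gene lists of the level minus the probe's median over all 12 arrays (log2, vertical axis), on each array (horizontal axis). The liver list stands high on 20E 15d replicate 3 and on Saline 15d replicates 1 and 2, the lymphoid list on 20E 5d replicate 3 and Saline 5d replicate 2, and the adipocyte list on 20E 5d replicate 1.

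Transcripts of lymphoid cells and antigen presentation were 28 of the 88 probes beyond 2-fold lower. This list of 35 genes, also chosen after the values were seen, had 32 tested probes of 24 genes, 1 higher and 31 lower. Of these, 4 were lower at an unadjusted p under 0.05 (background 3.53%), and the list's median was -1.41. All 32 had their highest level on 20E 5d replicate 3, and without the 2 arrays the median was -0.77. Ccl8, a chemokine, stood at 6.92, 5.9 and 7.38 and then at 4.74, 4.56 and 4.72. At the probe ILMN_1247832 of Cd74, the invariant chain of MHC class II, the pools stood at 6.58, 6.65 and 7.4 and then at 5.61, 5.74 and 5.91. The groups did not overlap at these 2 probes, with or without 20E 5d replicate 3. The brighter Cd74 probe ILMN_1221817 had a difference of -1.33 (SE 0.68), with 10.28, 9.88 and 11.45 and then 9.17, 9.25 and 9.19. The summed level was 5847 to 24564 at 5 days and 3956 to 4183 at 15 days, with Cr2 detected on 0 arrays, and in saline the median difference was -1.07. The macrophage list had 1 of 9 probes higher and 8 lower, 0 of them at an unadjusted p under 0.05, with sums of 1543 to 2418 and 1292 to 1514.

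Adipocyte markers were highest on 20E 5d replicate 1. All 5 tested probes were lower at 15 days, 3 of them at an unadjusted p under 0.05 (background 3.53%), with a median of -1.44, and -0.23 in saline. Lep, the hormone leptin, stood at 11.01, 8.14 and 8 and then at 7.8, 6.73 and 7.09. Adipoq, the hormone adiponectin, stood at 11.18, 8.79 and 9.15 and then at 8.89, 7.79 and 8.12. The summed level of the list was 6897 to 14947 at 5 days and 5891 to 7155 at 15 days, and Retn was detected on 0 arrays. Scd1, the stearoyl-CoA desaturase that is abundant in fat, stood at 14.22, 12.37 and 12.78 and then at 11.65, 10.78 and 11.89. Its difference was -1.68 (SE 0.52), with an adjusted p of 0.445 in limma, and Me1 and Elovl6 of the same fatty acid synthesis list had -0.4 and -1.11. In that list 3 of 7 probes were higher and 4 lower, 1 and 2 of them at an unadjusted p under 0.05 (background 5.1% and 3.53%). The part of adipocytes, lymphoid cells and liver transcripts in other differences was not tested.

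**Figure D5:**
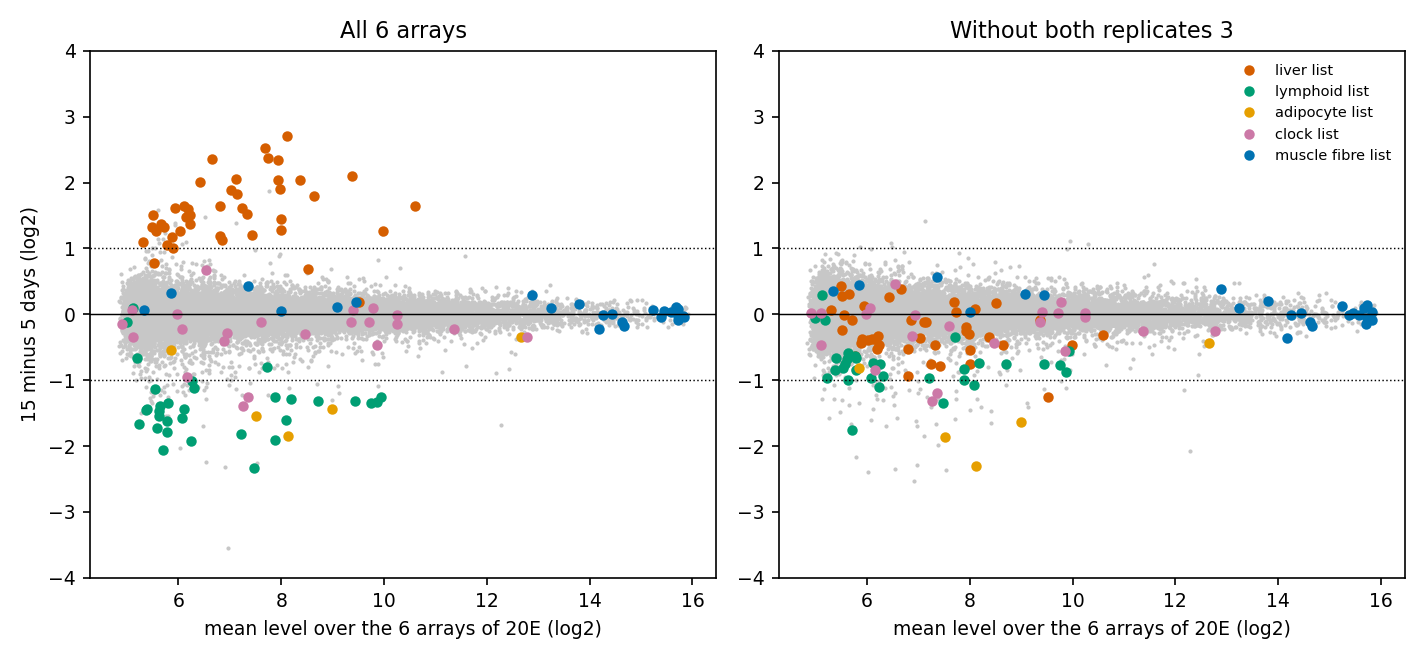
Difference of 15 minus 5 days (log2, vertical axis) against mean level over the 6 arrays of 20E (log2, horizontal axis) for the 18062 tested probes in grey, with 5 gene lists coloured, for all 6 arrays and without 20E 5d replicate 3 and 20E 15d replicate 3; dotted lines mark 2-fold. The liver list lies above the other probes at the left and mostly below 0 at the right (11 higher and 32 lower, median -0.32), while muscle fibre probes lie near 0 in both.

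Most muscle fibre markers differed little between the durations. Of 24 muscle fibre probes, 15 were higher and 9 lower, with a median of 0.05, and the 95% interval excluded a 2-fold change at 23 and a 1.5-fold change at 21. With array medians aligned, 11 were higher and 13 lower, and the median relative to all probes was 0.1. The wider list of fibre type and contraction genes had 26 of 36 probes higher and 10 lower (of all tested probes, 51% were higher). Of these, 3 and 0 had an unadjusted p under 0.05 (background 5.1% and 3.53%). The median was 0.06, and 0.13 without the 2 arrays, and a 1.5-fold change was excluded at 20 of the 36. In saline 28 of the 36 were higher, with a median of 0.11. Actc1 and Mylk2, described above, differed more. Myh1, the fast IIx myosin heavy chain, stood at 12.71, 12.65 and 12.85 and then at 13.04, 13.07 and 12.97, a difference of 0.29 (SE 0.1) with -0.01 in saline and an adjusted p of 0.489 in limma. The list of IGF, AKT and growth genes holds both promoters and inhibitors of muscle growth. It had 9 of 19 probes higher and 10 lower, 0 and 1 of them at an unadjusted p under 0.05 (background 5.1% and 3.53%). Each of the 19 intervals excluded 2-fold. Mtor, the growth kinase, was the 1 probe at that unadjusted p, with -0.44 (SE 0.15) and -0.03 in saline.

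Genes of muscle wasting had 4 of 16 probes higher and 12 lower, 0 and 5 of them at an unadjusted p under 0.05. Of all tested probes, 51% were higher, and 5.1% were higher and 3.53% lower at that p. The list's median was -0.14, and -0.17 in saline. With array medians aligned, 0 were higher and 16 lower, against 25.7% higher of all tested probes. The list's median relative to all probes was then -0.15, against -0.14 before. Fbxo32, the ubiquitin ligase atrogin-1, stood at 11.55, 11.59 and 11.56 and then at 10.33, 11.18 and 10.52 at the probe ILMN_2873444, a difference of -0.88 (SE 0.28) with -0.68 in saline. Trim63, the ligase MuRF1, had -0.41 (SE 0.1), equal to its saline difference. For both ligases the 15 day pools lay below the 5 day pools under 20E at these probes. Glucocorticoid-responsive genes had 4 of 18 higher and 14 lower, 1 and 6 of them at an unadjusted p under 0.05 (background 5.1% and 3.53%). Their median was -0.29, and -0.19 in saline. Here 11 of the 18 probes were highest on 20E 5d replicate 1, with a median of 0.34 above the 12-array median against 0.13 and -0.02 on the other 5 day arrays; adipocyte markers stood 2.55 above it on that array, and their part was not tested. The list included Cdkn1a, a cell cycle inhibitor, at -0.7 (SE 0.18) with -0.63 in saline. With array medians aligned, 2 of the 18 were higher and 16 lower. The list's median relative to all probes was then -0.25, against -0.29 before. The Per1 probes belong to this list as well as to the clock list.

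Of all tested probes in 20E muscle, 51% were higher, and 5.1% were higher at an unadjusted p under 0.05. Oxidative phosphorylation genes had 16 of 17 probes higher, 5 of them at an unadjusted p under 0.05, with a median of 0.1 and 0.15 without the 2 arrays. In saline 16 of the 17 were also higher, 4 of them at an unadjusted p under 0.05, with a median of 0.15. With array medians aligned, 11 of the 17 were higher under 20E and 6 lower. The median relative to all probes was then 0.18, against 0.09 before. Sdhb, a subunit of succinate dehydrogenase, had 0.29 (SE 0.11) and 0.2 (SE 0.09) at its 2 probes, and Cox7a1, a muscle subunit of cytochrome oxidase, had 0.2 (SE 0.08). Endothelial markers had 9 of 9 probes higher, 3 of them at an unadjusted p under 0.05, with a median of 0.24 and -0.01 in saline, led by Tie1 and Cdh5 at 0.33 and 0.31. With array medians aligned, 5 were higher and 4 lower, and the median relative to all probes was 0.22, against 0.24 before. Their summed level was 1995 to 2100 at 5 days and 2246 to 2461 at 15 days, against 2050 to 2331 and 2043 to 2393 in saline. Of the 9 endothelial probes, 7 were highest of the 6 arrays on 20E 15d replicate 2. That array's median stood 0.19 above the 12-array median, against 0.03 on each of the other 15 day arrays of 20E. Smooth muscle markers had 6 of 7 probes higher, 3 of them, all of Acta2, at an unadjusted p under 0.05. Without the 2 arrays 5 were higher and 2 lower, 0 of them at that p, and the same counts held with array medians aligned. In saline 4 of the 7 were higher, with a median of 0.01. The summed level did not rise with the count, at 17373 to 18007 at 5 days and 15750 to 17774 at 15 days. None of the probes of these lists had an adjusted p under 0.05 in limma.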

How the data were processed

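Pooled RNA of triceps brachii was hybridised to Illumina BeadChips, and the submitters' processing notes list BeadStudio 3.1.3 and limma with no role. Per the file headers, the deposited signal intensity is not normalized, and each deposited detection p-value accompanies it, per the file headers. A second table held log2 values deposited by the authors, whose background subtraction and normalization are not given in the sources used here. Column codes give infusion and replicate number, and their first letter is not defined in the labels. The assignment of columns to 5 or 15 days was taken as given with the comparison. It was checked by rank correlation with the log2 column of the same sample (at least 0.976, against at most 0.899 with any other).

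Signals were corrected with the normexp model through the detection p-values (offset 16), then quantile-normalized between arrays and log2-transformed, and 1 mean per group was fitted to 12 arrays (limma 3.58.1 in R 4.3.3, lmFit and eBayes, 8 residual degrees of freedom, two-sided). P-values were adjusted by Benjamini-Hochberg over 18062 probes. Summed levels add the normalized signals of a list on the linear scale. A probe undetected on all arrays of a group has only a bound, from the lowest detected level. The number of arrays limits the precision. Genes come from the platform annotation, updated through gene identifiers for 34807 of 34885 probes with 1 symbol; 18 had several and 10378 none. Promoters are RefSeq's (GRCm38.p6). Among probes with 1 gene symbol, the text names the 12 with the smallest p in each direction, the 4 in each direction without 20E 5d replicate 3 and 20E 15d replicate 3, and the list members with the smallest p. The members and lists were chosen with earlier results of these data known. Equal replicate numbers did not pair the arrays: deviations from the group means correlated at -0.18, 0.02 and -0.13. Alternatives varied background, scaling, filter, variance model, array weights, the split by column number and the arrays left out. Plots used Python 3.11.15 and matplotlib 3.10.9.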

Additional observations from a re-analysis of the deposited data

How the results depend on the processing

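The count of called probes, 0 with all arrays, was 3 with no background correction, 2 with median scaling, 1 with an offset of 50, 1 among probes detected on all 6 arrays, 1 with array weights, 7 with variances fitted robustly with a trend, and 1 at an adjusted p under 0.1 (limma). It was 0 to 2 when each array was left out in turn, and 1 without 3 arrays of 20E (5d replicates 1 and 3 and 15d replicate 3), a choice made after seeing the data that leaves 1 array of 5 days, assumed to vary like the other groups. Each of these sets with a called probe held the Ciart probe ILMN_3029489, and the others called were the Ciart probe ILMN_3102736, Actc1, Myod1, Cdc42ep2, Odc1 and the unnamed probe ILMN_2703821, which was outside the naming rule and added after its values were seen. Probes with an unadjusted p under 0.05, 1559 with all arrays, were 2918 with no filter, where all 45281 probes are tested, 721 without the 3 arrays, and 1256 to 1911 leaving out 1 array. Those beyond 2-fold, 143 with all arrays, were 47 with no background correction, 583 on the authors' log2 values, 76 with an offset of 50, 234 with no filter, 70 detected on all 6 arrays, 220 detected on 3 of 12 arrays, 266 within arrays 1 to 6, 76 without 20E 5d replicate 3 and 20E 15d replicate 3, 32 without the 3 arrays, and 92 to 213 leaving out 1. Probes whose groups do not overlap, 2808, were 5501 with no filter, and, with fewer arrays to overlap, 6497 without the 2 arrays, 12246 without the 3, and 2808 to 5217 leaving out 1. The median absolute difference of the dimmest class, 0.158, was 0.36 on the authors' log2 values. Apart from the filters and omissions, the cause was not tested. The difference between infusions was called at 0 probes in all 11 alternatives and in each omission of 1 array. Of 648 values of the named probes under the alternatives, 633 stayed on their side of the threshold, 15 passed it and 0 changed sign. With the replicate number as a block, 0 probes were called and 1386 had an unadjusted p under 0.05; the numbers are shared labels only. Signal near background limits the dimmest class.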
